A study of Homo sapiens with 6 samples.

Results

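Imprinted genes are read from a single parental copy, a choice marked by DNA methylation that is laid down in the egg or the sperm. Methylation at short imprinting control regions decides which copy is used, and a neighbouring cluster of genes usually follows the same control region. Many imprinted genes act on growth: as a rule of thumb genes used from the father's copy favour growth and genes used from the mother's copy restrain it, and changes at imprinted clusters are known from growth disorders and from tumours. The cytokine interleukin-1β (IL-1β) is a secreted driver of inflammation. To explore how imprinted genes were expressed in cells where its gene was targeted for silencing, 10 of them were followed on 6 arrays. They were SNRPN, H19, MEST, PEG10, PEG3, PLAGL1, CDKN1C, PHLDA2, NDN and GRB10. The platform annotation lists 21357 gene symbols in all. The 10 genes were taken with 36 of the 54613 probe sets, a probe set being the group of short probes that reads one transcript. Every probe set whose annotation lists one of the 10 symbols was included. For 22 of them the symbol stood alone, and for 14 it stood among several, which are named as such below. The genes were chosen by what is known of their imprinting and by the measured difference in signal between these groups, so their values are given as a description and without p-values. Where their probe sets are counted as past a threshold, in any fit, this too is a description and supports nothing.

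All samples were Cal27 cells, a cell line established from a human squamous cell carcinoma of the tongue, which carried a lentiviral short hairpin RNA. In the LV-shIL-1β group the hairpin was directed against IL-1β, and in the control group, LV-shNC, it was scrambled. Cells of this kind had been selected with puromycin at 2 µg/mL for 2 weeks, and each group held 3 arrays, made from 6 µg of total RNA each. Whether each array had its own culture, and whether the selected cells were a pool or a clone, is not given in the sources. The p-values given for genes other than the 10 therefore reflect no more than how these arrays varied, which may be technical variation. IL1B, the targeted gene, had a mean signal of 2594 (SD 92.6, n = 3) in LV-shNC on its probe set 205067_at, against 1578 (SD 15.8, n = 3) with the IL-1β hairpin, a log2 difference of -0.72 ± 0.04 (SE, limma adjusted p = 2.46e-05), and its other probe set, 39402_at, gave -0.74 ± 0.04. In bulk RNA such as this, fewer cells expressing a gene and less of its RNA per cell cannot be told apart.

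Of the 36 probe sets, 10 passed a filter on low values, which asked for a signal above 18.6, the median of all probe sets, on at least 3 arrays. These 10 came from 6 of the genes: SNRPN, H19, MEST, PLAGL1, PHLDA2 and GRB10. Signals of 21 of the 36 lay under that value on all 6 arrays. SNRPN and H19 were lower in LV-shIL-1β and 1 probe set of GRB10 was higher. The growth inhibitor CDKN1C was lower at signals close to the median of the array, while MEST and PHLDA2, which had strong signals, differed little. Past the threshold of 0.05 for the adjusted p were 4 of the 10 filtered probe sets, 3 lower and 1 higher. Over all 27566 filtered probe sets 7.05% passed, 3.37% lower and 3.68% higher, and since the comparison itself chose the genes nothing is read from these shares. Without the filter 7 of the 36 were lower and 1 higher, where 2.74% of all probe sets passed, 1.38% lower and 1.37% higher. Among these 7 were 3 of CDKN1C and the dimmer H19 probe set, which mostly missed the threshold with an array left out. The groups did not overlap, with LV-shIL-1β lower, for 13 of the 36, and with LV-shIL-1β higher for 1, beside 10.4% and 9.86% of all probe sets.

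**Figure D1:**
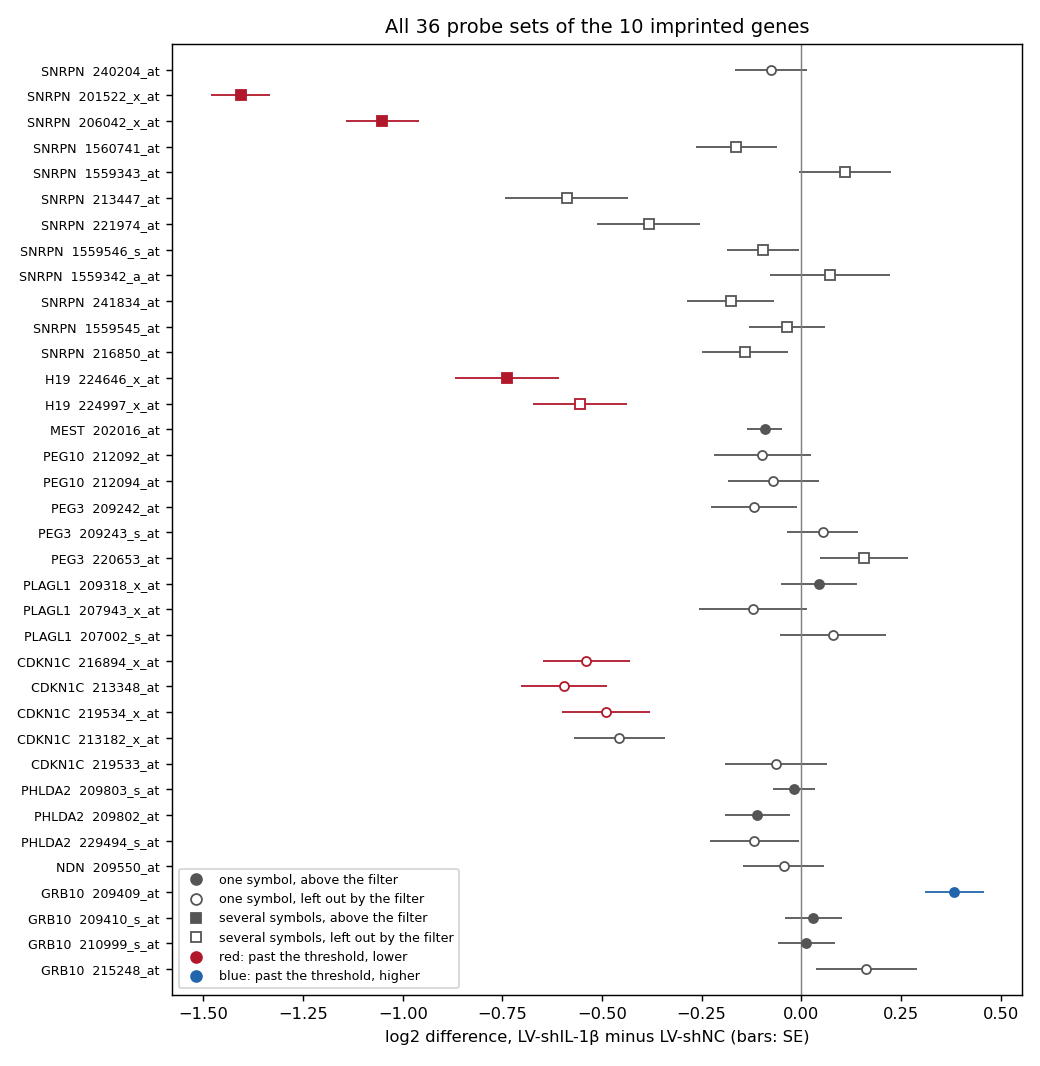
Log2 difference in signal, LV-shIL-1β minus LV-shNC, for each of the 36 probe sets of the 10 imprinted genes. Points are the fitted differences and bars their standard errors. Filled symbols passed the filter on low values and open symbols did not, circles have a single gene symbol and squares several, and colour marks probe sets past the threshold of 0.05 (filled ones in the filtered fit, open ones in the fit without a filter). The points farthest to the left are the SNURF/SNRPN probe sets at -1.41 and -1.05.

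SNRPN encodes SmN, a protein of the splicing machinery that stands in for the common form SmB in brain and some other tissues. Its RNA is read from the father's copy on chromosome 15, together with SNURF, a small protein encoded upstream in the same transcript, and the long transcript that follows carries the small nucleolar RNAs SNORD116 and SNORD115 and the noncoding RNA IPW. Loss of the father's copy of this region is known as the cause of Prader-Willi syndrome. The window around a start site that RefSeq gives to both SNURF and SNRPN is printed because the 2 probe sets that carry the difference are annotated with both genes. It spans 250 bases before to 50 bases after the start on assembly GRCh38.p14, plus strand, and the CG dinucleotides, where DNA methylation is placed, are in capitals:

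SNURF/SNRPN, chr15:24954737-24955036: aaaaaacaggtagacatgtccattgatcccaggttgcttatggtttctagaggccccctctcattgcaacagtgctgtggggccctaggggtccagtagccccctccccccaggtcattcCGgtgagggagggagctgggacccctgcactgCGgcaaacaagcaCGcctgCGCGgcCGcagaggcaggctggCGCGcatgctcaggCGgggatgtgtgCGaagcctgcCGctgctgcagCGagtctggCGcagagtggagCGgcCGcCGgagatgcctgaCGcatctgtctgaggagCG

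This window held 18 CG dinucleotides and 64.3% G and C. As many were found in 44.3% of the 34943 RefSeq windows of the same kind, whose median was 14. The letters TGCCGC, the core bound in methylated form by the imprint factor ZFP57, were found 2 times in it when both strands were searched, and 16.7% of all windows held them at least once. The other RefSeq windows of SNRPN held 7, 2 and 11 CG dinucleotides and TGCCGC 0, 0 and 1 times. These counts describe the letters only, and no methylation was measured here.

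On 201522_x_at, annotated with SNURF and SNRPN, the signal was 135, 127 and 132 on the LV-shNC arrays and 46.6, 53.9 and 48.3 on the LV-shIL-1β arrays. Every LV-shIL-1β array lay far below every LV-shNC array, at 37.7% of the control level, and the log2 difference was -1.41 ± 0.07 (SE, n = 3 and 3). Of all 54613 probe sets, 0 had a lower log2 difference. On 206042_x_at, annotated with the same pair, the signal was 59.9, 50.3 and 49.7 in LV-shNC and 24.8, 25.9 and 26.2 in LV-shIL-1β. Again the groups did not overlap, and the log2 difference was -1.05 ± 0.09. When each array was left out in turn these differences lay between -1.47 and -1.36 for the first probe set and between -1.10 and -0.96 for the second. With a pseudocount of 16 added before the logarithm they were -1.17 and -0.73.

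**Figure D2:**
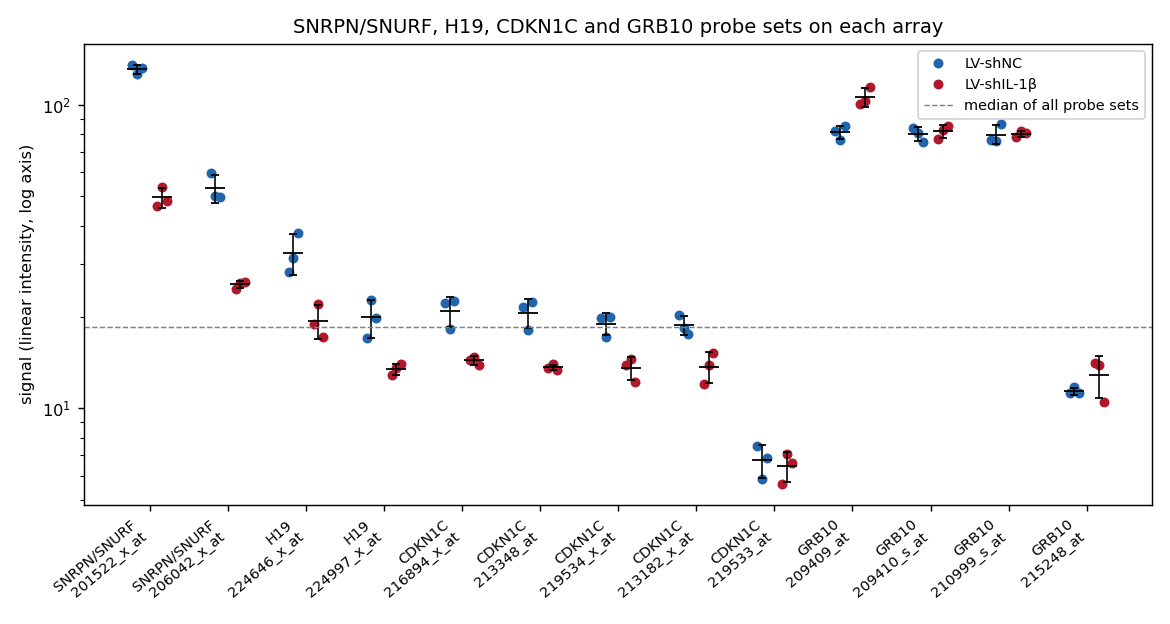
Signal on each array (linear intensity, log axis) for the probe sets of SNRPN/SNURF, H19, CDKN1C and GRB10 that the text turns on. Each point is 1 array, horizontal marks are group means, bars are SD over 3 arrays and the dashed line is the median of all probe sets, 18.6. For LV-shIL-1β every point is lower than every LV-shNC point for both SNURF/SNRPN and both H19 probe sets and for 4 of the 5 CDKN1C probe sets, and higher for GRB10 209409_at.

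The names of both probe sets end in _x_at, which marks probes that may also bind related transcripts. SNRPB, the paralogue of SNRPN that encodes SmB, was looked at for this reason after the values had been seen. Its probe sets differed by 0.12 ± 0.04 (208821_at) and 0.06 ± 0.03 (213175_s_at) on the log2 scale, neither past the threshold (limma adjusted p = 0.0975 and 0.324). Other related transcripts were not examined, and their part in the difference was not tested. The remaining 10 SNRPN probe sets were dim, with signals under 18.6 on all arrays. The only one with SNRPN as its sole symbol, 240204_at, lay between 2.07 and 2.41, where a difference could hardly be measured, and showed -0.08 ± 0.09. The third SNURF/SNRPN probe set, 1560741_at, was 5.88, 5.75 and 6.47 in LV-shNC and 5.27, 5.26 and 5.62 in LV-shIL-1β, a difference of -0.16 ± 0.10.

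Probe sets for the downstream part of the long transcript were mostly too dim to follow. Those annotated with SNRPN together with IPW, PWARSN and the small nucleolar RNAs ranged from 1.79 to 14.8. Among them 213447_at was 5.65, 5.50 and 7.92 in LV-shNC and 4.29, 3.61 and 4.66 in LV-shIL-1β, with groups that did not overlap and a log2 difference of -0.59 ± 0.15 that missed the threshold without the filter. Another of them, 1559343_at, had overlapping groups and a difference of 0.11 ± 0.12. In all, 6 of the 12 SNRPN probe sets had LV-shIL-1β arrays entirely below LV-shNC arrays and 0 the reverse. Over all probe sets these shares were 10.4% and 9.86%. Only 2 of the 12 passed the filter, the rest were dim, and all read the same RNA samples, so the count adds no separate observations.

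A related probe set that is not annotated with SNRPN, 228370_at, names IPW, PWARSN and small nucleolar RNAs of the same transcript. IPW is a long noncoding RNA also read from the father's copy. The signal was 15.9, 20.2 and 25.5 in LV-shNC and 9.50, 9.33 and 7.40 in LV-shIL-1β. All 3 LV-shIL-1β arrays were below all 3 LV-shNC arrays, and the log2 difference was -1.22 ± 0.17, or -0.56 with the pseudocount of 16. It did not pass the filter, with 2 LV-shNC arrays and 0 LV-shIL-1β arrays above 18.6. In the fit without a filter it was past the threshold (limma adjusted p = 0.00305), and it stayed so with each array left out (highest adjusted p = 0.0237).

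For other genes of the region no such difference was measured. NDN, which encodes necdin, a growth suppressor of neurons that is also read from the father's copy, had its single probe set between 4.04 and 4.72 and a log2 difference of -0.04 ± 0.10. MKRN3, a paternally expressed ubiquitin ligase, was at 29.2 ± 3.55 (SD, n = 3) in LV-shNC against 29.3 ± 2.69 in LV-shIL-1β, a log2 difference of 0.01 ± 0.11 with a 95% interval from -0.24 to 0.26 (limma adjusted p = 0.967). UBE3A, the ubiquitin ligase lost in Angelman syndrome, is read from the mother's copy in neurons and lies on the far side of the small nucleolar RNA genes. Its probe set 211285_s_at, which had the strongest signal, differed by 0.09 ± 0.05 (limma adjusted p = 0.295), and its other filtered probe sets by -0.13 to 0.12, none past the threshold. The nearest protein-coding genes with a filtered probe set on either side of SNRPN in the RefSeq order, up to 10 to a side, were listed after the values had been seen. Of these 15, 1 was past the threshold, KLF13 at -0.44 ± 0.06 (limma adjusted p = 0.003), beside 7.05% of all filtered probe sets. The median difference of the 15 was 0.01, and nothing is read from this count.

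**Figure D3:**
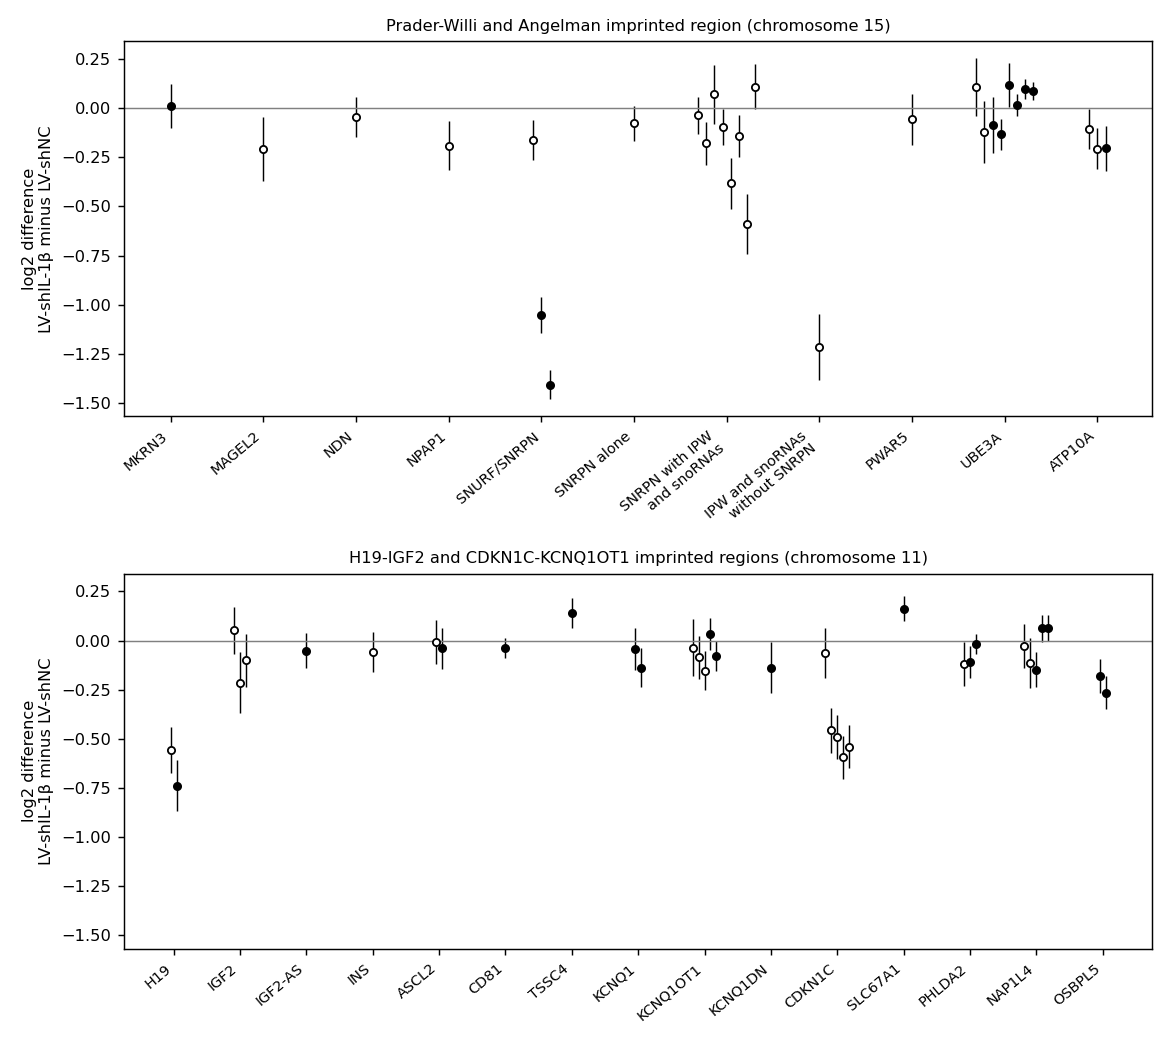
Log2 difference in signal, LV-shIL-1β minus LV-shNC, for each probe set of genes in the imprinted regions of chromosome 15 (upper panel) and chromosome 11 (lower panel), in approximate gene order and not to scale of distance. Points are single probe sets, bars are standard errors, and open points did not pass the filter on low values. In the upper panel 2 SNURF/SNRPN probe sets (-1.41 and -1.05) and the IPW probe set without SNRPN (-1.22) lie lowest. The third SNURF/SNRPN probe set (-0.16), SNRPN alone (-0.08), MKRN3 and UBE3A lie near 0, and SNRPN with IPW spans -0.59 to 0.11. In the lower panel the lowest points are those of H19 (-0.74 and -0.56) and CDKN1C (down to -0.59).

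H19 is a long noncoding RNA read from the mother's copy on chromosome 11, where a shared control region lets either H19 from the mother or the growth factor IGF2 from the father be used. It is abundant in the fetus, has been described both as a restraint on growth and as active in tumours, and is the precursor of the microRNA miR-675. Both H19 probe sets are annotated with MIR675 as well, so the mature forms are printed to show what the annotation refers to. Their seeds, bases 2 to 8, with which a microRNA pairs to its targets, are in capitals, and the sequences are those of RefSeq on GRCh38.p14, minus strand, at chr11:1996800-1996822 and chr11:1996768-1996787:

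hsa-miR-675-5p: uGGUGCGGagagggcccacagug

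hsa-miR-675-3p: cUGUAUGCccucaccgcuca

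The seeds of the 2 arms differ, and the arrays read neither arm apart from H19. The H19 start site window, on the minus strand of GRCh38.p14 and with CG in capitals, is printed as well:

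H19, chr11:2001217-2001516: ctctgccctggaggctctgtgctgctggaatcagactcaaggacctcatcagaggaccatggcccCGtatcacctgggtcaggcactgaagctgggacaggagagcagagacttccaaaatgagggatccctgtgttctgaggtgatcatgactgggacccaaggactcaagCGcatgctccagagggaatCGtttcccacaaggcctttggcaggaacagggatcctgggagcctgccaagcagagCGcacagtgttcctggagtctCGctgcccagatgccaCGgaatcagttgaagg

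It held 6 CG dinucleotides and 57.7% G and C, 66.2% of all windows held as many, and TGCCGC was not among its letters. The windows were taken at start sites and not as imprinting control regions, so nothing on imprinting is read from these counts. RefSeq windows were given for 6 of the 10 genes.

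On 224646_x_at the H19 signal was 28.2, 31.3 and 38.0 in LV-shNC and 19.02, 22.1 and 17.2 in LV-shIL-1β. All LV-shIL-1β arrays were below all LV-shNC arrays, at 60.0% of the control level, and the log2 difference was -0.74 ± 0.13 (SE, n = 3 and 3). It lay between -0.83 and -0.62 with each array left out and was -0.45 with the pseudocount of 16. On 224997_x_at the signal was 17.1, 22.8 and 19.9 in LV-shNC and 12.9, 13.5 and 14.0 in LV-shIL-1β. The groups did not overlap here either, and the difference was -0.56 ± 0.12. This second probe set did not pass the filter, and its difference was -0.28 with the pseudocount. In the fit without a filter the difference was past the threshold, but it stayed so in only 1 of 6 fits with an array left out. The names of both H19 probe sets also end in _x_at, and whether other transcripts added to their signal was not tested.

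IGF2, the reciprocally imprinted partner of H19, was dim. Its 3 probe sets, annotated with INS-IGF2 as well, ranged from 8.26 to 14.6, below the filter on every array, with log2 differences from -0.22 to 0.05 and overlapping groups. IGF2R, the receptor that takes IGF2 up for breakdown, had its 3 filtered probe sets at 0.15 to 0.17, and on 201393_s_at the signal was 397, 406 and 425 in LV-shNC and 479.8, 457 and 448 in LV-shIL-1β. The groups of this probe set did not overlap, but the difference of 0.17 ± 0.05 missed the threshold (limma adjusted p = 0.0722). The 20 protein-coding genes listed nearest to H19 with a filtered probe set, 10 to a side, were those not overlapping it in RefSeq. Past the threshold of limma's adjusted p were 0 of them, beside 7.05% of all filtered probe sets. With an unadjusted p under 0.05 there were 4, beside 6225 of all 27566 filtered probe sets. The median log2 difference of the 20 was -0.03, and nothing is read from these counts. MRPL23, left out for its overlap, was at -0.02 ± 0.06 (limma adjusted p = 0.893).

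CDKN1C encodes p57, an inhibitor of cyclin-dependent kinases that halts the cell cycle, and is read from the mother's copy in the next imprinted cluster of the same chromosome. None of its 5 probe sets passed the filter. On 213348_at the signal was 21.6, 18.1 and 22.4 in LV-shNC and 13.6, 14.0 and 13.4 in LV-shIL-1β. The groups did not overlap, and the log2 difference was -0.59 ± 0.11. On 216894_x_at it was 22.2, 18.3 and 22.5 in LV-shNC and 14.5, 14.8 and 13.9 in LV-shIL-1β, a difference of -0.54 ± 0.11. Non-overlapping groups were also seen on 219534_x_at (-0.49 ± 0.11) and 213182_x_at (-0.46 ± 0.11), while 219533_at, between 5.65 and 7.51, showed overlapping groups and -0.06 ± 0.13. These probe sets read the same RNA samples and, in part, may read the same transcripts, so they are not separate observations. With the pseudocount of 16 the differences of 213348_at and 216894_x_at were -0.31 and -0.28. In the fit without a filter 213348_at, 216894_x_at and 219534_x_at were past the threshold. With an array left out they stayed so in only 2, 1 and 0 of 6 fits.

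KCNQ1OT1, the noncoding RNA from the father's copy that silences CDKN1C and its neighbours there, had filtered probe sets at 0.03 ± 0.08 (237249_at) and -0.08 ± 0.08 (243435_at), neither past the threshold (limma adjusted p = 0.848 and 0.598). PHLDA2, a small protein of the same cluster that restrains growth of the placenta, was bright on 209803_s_at, with 842, 941 and 901 in LV-shNC and 909.8, 893 and 846 in LV-shIL-1β. The groups overlapped, and the difference was -0.02 ± 0.05 with a 95% interval from -0.13 to 0.10. On 209802_at its signal was 27.0, 27.3 and 27.9 in LV-shNC and 26.5, 25.5 and 24.2 in LV-shIL-1β, which did not overlap but differed by only -0.11 ± 0.08. The third probe set, 229494_s_at, showed -0.12 ± 0.11 below the filter. Of the 20 genes nearest to CDKN1C, many of them shared with the H19 list, 0 were past the threshold in limma, beside 7.05% of all filtered probe sets. With an unadjusted p under 0.05 there were 4, beside 6225 of all 27566 filtered probe sets. The median of the 20 was -0.02, and nothing is read from these counts.

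GRB10 encodes an adaptor that binds the insulin and IGF1 receptors and dampens their signalling, and which parental copy is used differs between tissues. Its probe sets disagreed. On 209409_at the signal was 82.0, 76.8 and 85.2 in LV-shNC and 101, 103 and 114 in LV-shIL-1β. Every LV-shIL-1β array was above every LV-shNC array, with a log2 difference of 0.38 ± 0.07. On 209410_s_at, at 80.2 ± 4.25 and 81.9 ± 3.97 (SD, n = 3), the difference was 0.03 ± 0.07, and on 210999_s_at, at 79.9 ± 5.76 and 80.5 ± 1.93, it was 0.01 ± 0.07. The 95% intervals of these, -0.13 to 0.19 and -0.15 to 0.17, lay below that of 209409_at, 0.22 to 0.55. The last probe set, 215248_at, was dim and showed 0.16 ± 0.13. With each array left out the difference of 209409_at lay between 0.33 and 0.42. Of the 20 genes nearest to GRB10 on chromosome 7, 1 was lower, IGFBP3 at -0.48 ± 0.03, and 5 were higher, ADCY1, TNS3, FIGNL1, MRPS17 and SUMF2 at 0.16 to 0.54, beside 3.37% and 3.68% of all filtered probe sets. An unadjusted p under 0.05 was found for 10 of the 20, beside 6225 of all 27566 filtered probe sets, and the median of the 20 was 0.13. These neighbours too were listed after the values had been seen.

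The paternally expressed genes outside chromosome 15 were either below the filter or differed by no more than their error allows to be told from 0. MEST, a hydrolase-like protein of the mesoderm, had a strong signal, with 1264, 1249 and 1179 in LV-shNC and 1110.3, 1183 and 1172 in LV-shIL-1β. The groups overlapped, and its log2 difference of -0.09 ± 0.04 had a 95% interval from -0.19 to 0.01. PLAGL1, a zinc finger transcription factor that induces growth arrest and regulates a network of imprinted genes, was 34.7, 42.8 and 41.2 in LV-shNC and 43.5, 39.4 and 39.3 in LV-shIL-1β on 209318_x_at. This was a difference of 0.04 ± 0.10 with a 95% interval from -0.17 to 0.26, and its other probe sets lay under the filter between 3.98 and 6.63. PEG10, a placental gene derived from a retrotransposon, ranged from 3.78 to 11.3 on its 2 probe sets, with differences of -0.10 ± 0.12 and -0.07 ± 0.11. PEG3, a zinc finger protein with roles in cell death and maternal behaviour, ranged from 1.99 to 13.1 on 3 probe sets, 1 of which also names ZIM2, with differences from -0.12 to 0.16. Signals of PEG10, PEG3 and NDN were under the filter on all arrays, and no difference of theirs exceeded 1.5 times its standard error. SGCE, which shares its control region with PEG10, was also below the filter.

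To explore whether imprinted genes differed more widely, 75 further imprinted genes and neighbours in imprinted clusters were listed by what is known of them. The 10 genes above, chosen in part by their difference here, were left out. That alone can lower the share past the threshold among the rest, so nothing is read from that share. With a single symbol, 58 were measured by 131 probe sets, of which 65, from 33 genes, passed the filter. Past the threshold was 1 of the 65, or 1.54%, beside 7.05% of all filtered probe sets, and the median log2 difference of the 131 was -0.03, beside -0.01 over all probe sets. This 1 was 214157_at of GNAS, the locus of the stimulatory G protein subunit with several imprinted transcripts, at 46.9, 50.04 and 54.6 in LV-shNC and 66.2, 78.8 and 63.7 in LV-shIL-1β. Its groups did not overlap, and the log2 difference was 0.46 ± 0.10 (limma adjusted p = 0.0222), which missed the threshold without LV-shNC array 1 or 2 or LV-shIL-1β array 2. Another GNAS probe set, 217058_at, showed -0.36 ± 0.13 with groups that did not overlap (limma adjusted p = 0.126), and those with the strongest signal lay between -0.04 and -0.02. Without the filter GNAS-AS1, the antisense transcript of the locus, was also past the threshold, at -0.45 ± 0.10 (limma adjusted p = 0.0433), but it missed the threshold whenever an array was left out. MEG3, a maternally expressed noncoding RNA of chromosome 14 and a growth suppressor, was at -0.03 ± 0.12 on its filtered probe set 210794_s_at (limma adjusted p = 0.902), and its paternally expressed partner DLK1 was below the filter.

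The enzymes and binding proteins that write, keep or erase methylation at imprinted loci were examined as a further list of 14 genes. With a single symbol 13 were measured, and 18 probe sets from 11 genes passed the filter. Of these 18, 3 were past the threshold, 1 lower and 2 higher, which is 16.7%, beside 7.05% of all filtered probe sets. The lower one passed the filter through the LV-shNC arrays alone, and the list was chosen with earlier results known. Nothing is therefore read from this share. Without the filter 1 of all 22 was, TET1, beside 2.74%. TET1, a dioxygenase that oxidises methylated cytosine as a step in its removal, was 36.1, 31.1 and 32.8 in LV-shNC and 15.3, 17.2 and 13.3 in LV-shIL-1β on 228906_at. All LV-shIL-1β arrays were below all LV-shNC arrays, and the log2 difference was -1.13 ± 0.11 (limma adjusted p = 0.000455 in the fit without a filter). This probe set passed the filter through the LV-shNC arrays alone, so among the filtered probe sets it had to differ. The fit without a filter avoids this, but the list was chosen with earlier results known. Its adjusted p is therefore only a description. With the pseudocount of 16 its difference was -0.66.

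The 2 higher ones were small. TRIM28, the corepressor that ZFP57 recruits to keep imprints, was 473, 448 and 445 in LV-shNC and 512, 521 and 519 in LV-shIL-1β, a log2 difference of 0.18 ± 0.05 (limma adjusted p = 0.043) that held at 6 of 15 settings. TET2, a relative of TET1, was 22.1, 23.0 and 24.6 in LV-shNC and 30.5, 30.3 and 27.5 in LV-shIL-1β on 227624_at, a difference of 0.34 ± 0.09 (limma adjusted p = 0.0494). Its other probe sets were at 0.02 and -0.35, neither past the threshold, and 227624_at itself missed it whenever an array was left out. DNMT1, which copies methylation to the new strand after replication, was at 0.10 ± 0.05 (limma adjusted p = 0.223), and UHRF1, its guide to those sites, at 0.14 ± 0.06 (adjusted p = 0.197). The writers DNMT3A and DNMT3B lay between -0.12 and -0.08 on their filtered probe sets and missed the threshold. ZFP57 itself was below the filter. No methylation was measured, so whether any of these differences went with a change at an imprinting control region was not tested.

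**Figure D4:**
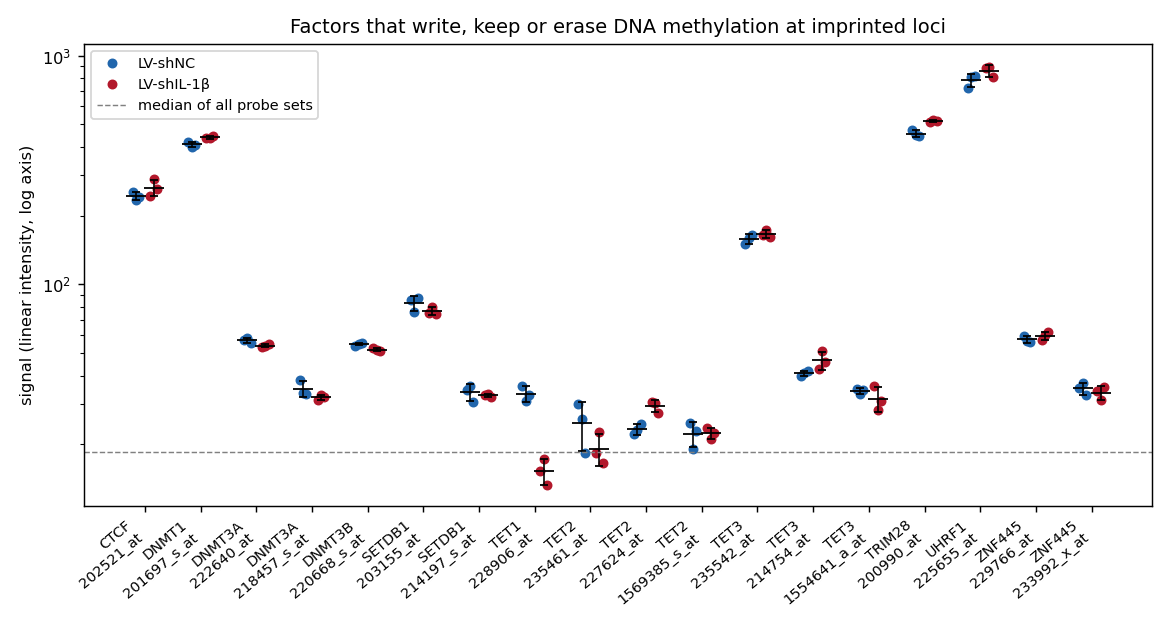
Signal on each array (linear intensity, log axis) for the filtered probe sets of factors that write, keep or erase DNA methylation at imprinted loci. Each point is 1 array, horizontal marks are group means, bars are SD over 3 arrays and the dashed line is the median of all probe sets, 18.6. For TET1 228906_at the LV-shNC arrays lie between 31.1 and 36.1 and the LV-shIL-1β arrays between 13.3 and 17.2, below the dashed line.

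To find the genes whose pattern over the 6 arrays was most like that of SNRPN and H19, each probe set was centred on its own mean log2 signal and compared by the root mean square difference, over 12322 genes. Both patterns are largely the difference between the groups, so this lists genes with a similar difference and array-to-array deviations. Nearest to 201522_x_at of SNURF/SNRPN were VSNL1 (0.0763), a neuronal calcium sensor, TET1 (0.163), KRT13 (0.164), a keratin of moist stratified epithelia, PLAC8 (0.203) and FSTL1 (0.243), a secreted glycoprotein. Nearest to 224646_x_at of H19 were GJB6 (0.0891), a connexin of stratified epithelia, LINC01133 (0.102), CPM (0.103), PROCA1 (0.107) and TMT1A (0.108). The LV-shNC and LV-shIL-1β means were 118 and 48.0 for VSNL1 and 401 and 231 for GJB6.

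Markers of cell types were set beside these results. Of all filtered probe sets, 3.37% were lower and 3.68% higher past the threshold. All 9 probe sets of the squamous epithelial list, from 6 of its 9 genes, passed the filter, with a summed signal of 15280 to 16035 on the LV-shNC arrays and 12947 to 13669 on the LV-shIL-1β arrays, and 4 of the 9 were lower, those of KRT5, KRT14 and PKP1 (log2 differences of -0.40 to -0.30). Of 31 fibroblast probe sets 8 passed the filter and 4 were lower, from COL1A1, LUM and COL1A2, with a summed signal of 444 to 477 in LV-shNC and 342 to 358 in LV-shIL-1β. The other genes of the list with a filtered probe set, PDGFRB and THY1, missed the threshold, and COL3A1, DCN, PDGFRA and FAP had none. Of the leukocyte list 1 single-symbol probe set of 14 passed, CD14, which was higher by 0.51 ± 0.08 (limma adjusted p = 0.00454), and the list summed to 129 to 132 and 142 to 145, while the 12 endothelial probe sets summed to 136 to 139 and 126 to 132.6 and their filtered ones, of PECAM1 and CLDN5, showed -0.03 and -0.17 and missed the threshold. Under 18.6 on all arrays were 22 of the 31 fibroblast, 12 of the 14 single-symbol leukocyte and 8 of the 12 endothelial probe sets. The lowest signal of any probe set was 1.38, so no marker could read 0 even if its RNA was absent. The part of the marker shifts in the differences of SNRPN, H19 and CDKN1C was not tested.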

How the data were processed

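RNA of 6 Cal27 cultures or preparations, 3 with LV-shIL-1β and 3 with LV-shNC, was read on Affymetrix U133 Plus 2.0 arrays, and groups and array numbers were taken from the sample labels. The authors deposited 1 linear intensity for each probe set on each array. MAS5 is named in the submitters' processing notes, with its version and settings not given in the sources used here. Signals ran from 1.38 to 10502, the medians of the arrays from 18.4 to 18.9, at most 1.17% of probe sets had equal values on any pair of arrays, and correlations within a group were at least 0.996. The number of arrays limits the precision.

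Deposited intensities were put on the log2 scale with no further normalization. The 62 control probe sets were left out, and 27566 probe sets were kept with a signal above 18.6, the median, on at least 3 of the 6 arrays. The comparison of LV-shIL-1β with LV-shNC used limma 3.58.1 (R 4.3.3; linear fit and empirical Bayes with a trend, two-sided), with p-values adjusted by the Benjamini-Hochberg method over all kept probe sets and a threshold of 0.05. Differences of probe sets under the filter are from the same fit to all 54613. The script was tested on simulated data.

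The 10 genes and all lists were chosen with earlier results of these data known. Named were every probe set of the 10 genes, IL1B, listed genes past the threshold, a set of genes chosen by role whatever their value (IGF2, IGF2R, KCNQ1OT1, SNURF, UBE3A, SGCE, MEG3, DLK1, DNMT1 and TET1), and the 5 nearest patterns to SNRPN and H19. That rule asked for a single-symbol probe set, of which SNRPN and H19 had none past the filter, so their brightest kept ones, which name several genes, were used. Symbols came from the platform annotation (41091 probe sets with 1 symbol, 1801 with several, 11721 with none), of which 21308 matched RefSeq. Start site windows and microRNAs are those of RefSeq, GRCh38.p14. The files name no genome build, so other coordinates are not given. Alternatives were other normalizations, a pseudocount, other filters, no trend, array numbers as a block, the methods' t-test, and each array left out, also without the filter for probe sets under it, which was added after the data were seen. The methods' t-test is Student's, which the study's methods name in general and not for the arrays, and its Benjamini-Hochberg adjustment was added here.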

Additional observations from a re-analysis of the deposited data

How the results depend on the processing

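No difference of the 10 genes or of IL1B that was past the threshold changed direction under any alternative, while several differences near 0 changed sign when an array was left out, and that of GRB10 210999_s_at also with quantile normalization. Among all kept probe sets, 1943 were past the threshold, 568 with the replicate numbers as a block, 267 with the methods' t-test after adjustment (5227 before), and 696 (without LV-shIL-1β array 2) to 1808 (without LV-shIL-1β array 1) with an array left out. Of the 10 genes' probe sets with a single symbol, 1 (GRB10) was past it, 4 without the filter, 0 with the block (1 at an unadjusted p under 0.05), 0 with the methods' t-test (2 unadjusted), and 0 to 1 with an array left out (0 without LV-shNC array 2 or LV-shIL-1β array 2 or 3). Of those with several symbols 3 were, and 1 with the stricter filter, which leaves the dimmer SNURF/SNRPN and the H19 probe sets untested. With the methods' t-test 2 were, without H19 224646_x_at, and 3 to 3 with an array left out. Of the other imprinted probe sets 1 (GNAS) was past it, 2 without the filter, 0 with the stricter filter (2 unadjusted in limma), 0 with the block (4 unadjusted), 0 with the methods' t-test (7 unadjusted) and 0 to 1 with an array left out. Of the methylation factors 3 were, 1 without the filter, 1 with the stricter filter, 1 with the block, 0 with the methods' t-test (6 unadjusted) and 1 to 2 with an array left out. The cause of these losses was not tested. Both IL1B probe sets stayed past the threshold throughout, at -0.74 to -0.69 and -0.77 to -0.73 with an array left out.

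Equal replicate numbers did not pair the arrays: deviations of same-numbered arrays from their group means correlated at -0.39, -0.11 and -0.21 over the kept probe sets, so the block is only an alternative.

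Signals near or below 18.6, where most probe sets of CDKN1C, PEG10, PEG3 and NDN lie, limit what can be seen, and with the pseudocount of 16 the difference of SNURF/SNRPN shrank to -1.17 and -0.73 and that of H19 to -0.45.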
